A study of Mus musculus with 6 samples.

Results

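The kainate and delta glutamate receptor genes were followed in the brains of mice fed the protease-treated porcine liver decomposition product (PLDP). The set comprised 8 genes, Grik1, Grik2, Grik3, Grik4, Grik5, Grid1, Neto1 and Neto2, which were found by their gene symbols among the 60354 features of each count file. Male C57BL/6NCrSlc mice, 16 weeks old at the start, ate for 16 weeks either a modified AIN-93M feed holding 20% PLDP or a modified AIN-93M feed of adjusted calories, and then went through behavioral tests, during which no PLDP was given. RNA was taken from the whole brain the day after the tests ended, so the mice were no longer eating PLDP when sampled. RNA-seq was carried out on 3 control mice (numbers 2, 5 and 10) and 3 PLDP mice (numbers 17, 22 and 26), each a separate animal by its label. The question was whether transcripts of these receptors differed between the diets.

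Kainate receptors are glutamate-gated ion channels assembled from several subunits, and they act on both sides of the synapse, where they depolarize the postsynaptic membrane and adjust transmitter release. GluK1, GluK2 and GluK3, encoded by Grik1 to Grik3, bind kainate with low affinity and can form channels alone, whereas GluK4 and GluK5, encoded by Grik4 and Grik5, bind it with high affinity and need a low-affinity partner to reach the cell surface as a working channel. Neto1 and Neto2 are auxiliary membrane proteins that slow the closing of these channels. Grid1 encodes GluD1, a relative that is bridged by cerebellins to presynaptic neurexins and organizes synapses.

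The family is built on a shared membrane core, and the counts of its members could be mixed if short reads failed to tell them apart. The stretch below is shown for that reason. It is the coding sequence around the third membrane segment, read from the GENCODE M21 transcripts (GRCm38), 87 bases in each gene, of which the middle 39 encode 13 residues that all 6 receptor genes share. Capitals mark bases that differ from Grik5.
Grik5: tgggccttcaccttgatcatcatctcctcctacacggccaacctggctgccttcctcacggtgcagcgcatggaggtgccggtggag
Grik4: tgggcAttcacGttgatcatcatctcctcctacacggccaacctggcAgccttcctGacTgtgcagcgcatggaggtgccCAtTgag
Grik3: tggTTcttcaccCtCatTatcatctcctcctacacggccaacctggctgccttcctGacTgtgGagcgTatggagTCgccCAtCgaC
Grik2: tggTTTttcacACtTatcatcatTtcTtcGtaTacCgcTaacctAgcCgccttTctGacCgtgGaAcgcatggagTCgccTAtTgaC
Grik1: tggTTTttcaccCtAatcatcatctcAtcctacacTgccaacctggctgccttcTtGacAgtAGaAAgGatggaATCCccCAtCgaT
Grid1: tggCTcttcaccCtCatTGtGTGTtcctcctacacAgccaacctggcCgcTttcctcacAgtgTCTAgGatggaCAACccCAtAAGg
The Grik5 stretch lies at chr7:25015886-25015972 on the minus strand in exon 16. The Grik4 stretch lies at chr9:42543836-42543922 (minus strand, exon 17), that of Grik3 at chr4:125694015-125694101 (plus strand, exon 13), that of Grik2 at chr10:49240657-49240743 (minus strand, exon 14) and that of Grik1 at chr16:87935976-87936062 (minus strand, exon 13). In Grid1 it crosses the junction of exons 12 and 13 between chr14:35452314-35520689 on the plus strand. Grik4 differed from Grik5 at 8 of the 87 bases, Grik3 at 15, Grik1 at 23, Grik2 at 25 and Grid1 at 28, so the high-affinity pair was the closest in these bases. Over the whole coding sequences the longest run of identical bases was 38, between Grik3 and Grik5, followed by 35 between Grik4 and Grik5 and 35 between Grik1 and Grik2. These runs are shorter than a 150-base read. For each member the longest protein-coding transcript was cut into 150-base windows, and its other transcripts were not checked. No window of Grik1 to Grik5, Grid1 or Neto2 occurred in the transcripts of another gene. In Neto1 71 of 8203 windows did so, where a gene on the opposite strand shares 219 exon bases and had a mean of 0.17 counts. Whether the counting used strand is not given in the sources used here.

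Between 18797061 and 23938729 counts were assigned per mouse, so the least expressed member, Grik1, still had 342 to 413 counts, and Grik5 had 3756 to 4848. The PLDP mouse 17 stood apart from the others of its diet, since its counts gave a chi-square per feature of 5.33 and 5.03 against mice 22 and 26, while the other pairs of the same diet gave 2.36 to 3.12. Markers of the brainstem and spinal cord were lower in PLDP mice. All 7 tested genes of that list were called lower, at a p under 0.05 before adjustment, and 1 had an adjusted p under 0.05. In 5 of them the diets did not overlap, while Hoxb5 and Hoxc4 overlapped. Over all tested features, 3.69% were called lower and 14.2% were free of overlap in either direction. The list was chosen with earlier results of these data known, so its calls are not an independent test. Without control mouse 5 edgeR gave 0 features with an adjusted p under 0.05, so Slc6a5 lost it too, and 1226 with a p under 0.05 before adjustment. The summed level of these markers, carried mostly by Slc6a5 and Glra1, was 143.3 to 156 CPM (reads of a gene scaled to a common library size) in control mice and 76.1 to 112 CPM in PLDP mice. Slc6a5, the glycine transporter of glycinergic neurons, had 49.4, 44.0 and 42.2 CPM in control mice and 31.0, 22.4 and 32.7 CPM in PLDP mice (log2 fold change -0.66, adjusted p = 0.0369 by edgeR's quasi-likelihood test), and the glycine receptor gene Glra1 had 89.5, 85.1 and 86.2 CPM against 68.3, 49.4 and 67.7 CPM (-0.50, adjusted p = 0.0592). The part of these markers in the results below was not tested, and in whole-brain RNA fewer cells of a type and less RNA per cell cannot be told apart. Neuronal markers were present in every mouse, with a summed level of 3572 to 3698 CPM, and none of the 4 tested was called.

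Levels were first compared between the genes, per kilobase of annotated exon. Grik5 was the most abundant member in every mouse, with 35.6 to 42.4 CPM per kb. Neto2 followed at 11.05 ± 0.48 CPM per kb and Grik3 at 10.97 ± 0.70 (SD over 6 mice), then Neto1 at 8.32 ± 0.39, Grid1 at 8.05 ± 0.49, Grik2 at 5.56 ± 0.24, Grik4 at 4.10 ± 0.24 and Grik1 at 2.65 ± 0.06. The ranges over mice overlapped for Neto2 and Grik3, and for Neto1 and Grid1, and all other neighbors in this order were separated in all 6 mice. When the longest transcript was used as the length, a choice made after the data were seen, Grik1 (4.87) lay above Grik4 (4.16) and Grid1 (8.39) above Neto1 (8.32), while Grik5 (49.2) stayed first.

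**Figure D1:**
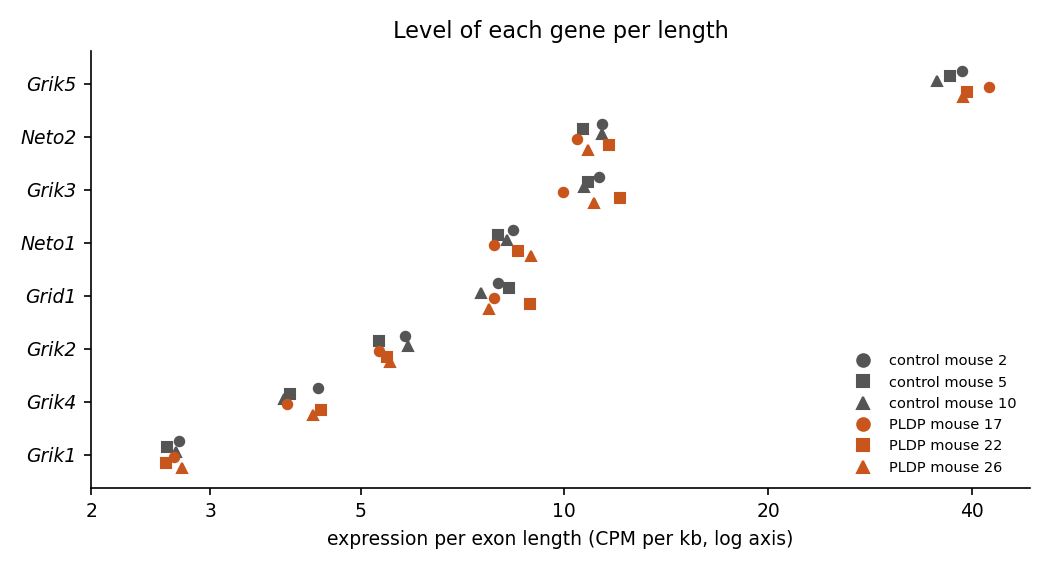
Level of each member in CPM per kb of exon (log axis), 1 point per mouse, gray for control and orange for PLDP. Grik5 sits between 35.6 and 42.4 in all 6 mice, above every other member, and the points of both diets intermingle in most lines.

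Among the kainate subunits alone, Grik5 made up 61.7%, 62.2% and 60.6% of the summed CPM per kb in control mice 2, 5 and 10, and 66.0%, 61.6% and 62.3% in PLDP mice 17, 22 and 26. The diets overlapped, and mouse 17 alone lay above the rest. Grik3 supplied 15.5 to 18.9%, Grik2 8.30 to 10.0%, Grik4 6.08 to 6.89% and Grik1 4.04 to 4.55%, so transcripts of the obligate partner subunits exceeded those of the channel-forming subunits in every mouse. The ratio of high- to low-affinity transcripts was 2.14 ± 0.08 in control mice and 2.33 ± 0.22 in PLDP mice (SD, n = 3 each, p = 0.3, two-sided exact permutation test). Its 6 values ran from 2.05 in control mouse 10 to 2.58 in PLDP mouse 17, and without mouse 17 the log2 difference moved from 0.12 to 0.04. The summed kainate level was 60.4 ± 2.1 CPM per kb in control mice and 63.5 ± 0.94 in PLDP mice (SD, n = 3 each, exact permutation p = 0.2), and the ranges overlapped. With 3 mice per diet such a test cannot give a p below 0.1. Beside the other ionotropic receptors, kainate subunits took 17.8 to 19.2% of the summed CPM per kb, AMPA subunits 45.6 to 48.2%, NMDA subunits 31.5 to 32.9% and Grid1 2.28 to 2.57%.

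**Figure D2:**
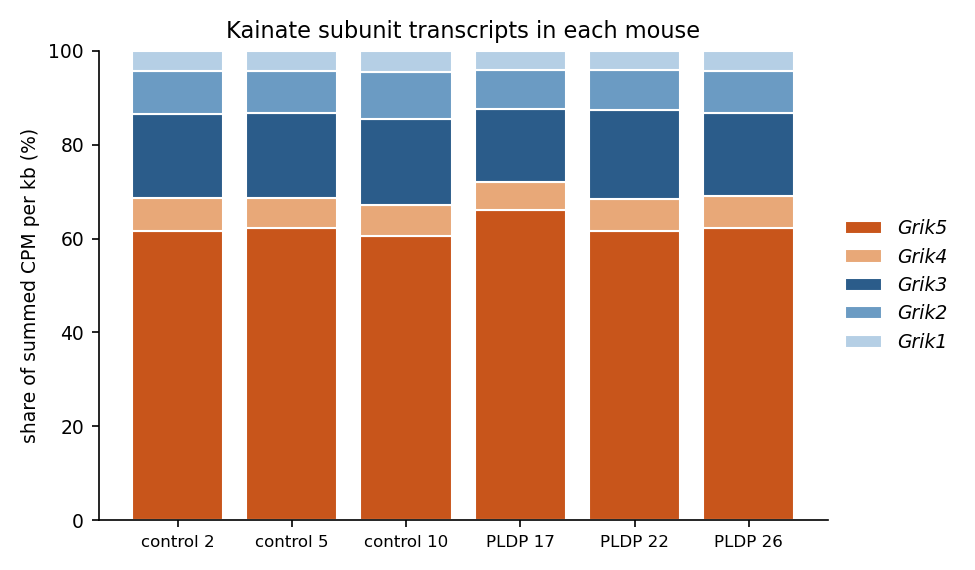
Share of each kainate subunit gene in the summed CPM per kb (vertical axis, percent) of each mouse (horizontal axis). Grik5 fills 60.6 to 66.0% of every bar, with the highest share in PLDP mouse 17.

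Between the diets, 1 of the 8 members was called, Grik5, and it was higher in PLDP mice. The call rested on a p under 0.05 before adjustment, at which 8.6% of the 18580 tested features passed, 4.91% higher and 3.69% lower. All 8 members passed the filter on low counts and none had an adjusted p under 0.05. In 1 of 8 members the diets did not overlap, where 14.2% of all tested features were free of overlap. One called gene among 8 is thus close to the background, and the median log2 fold change of the members, 0.03, lay near that of all features, -0.0006.

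**Figure D3:**
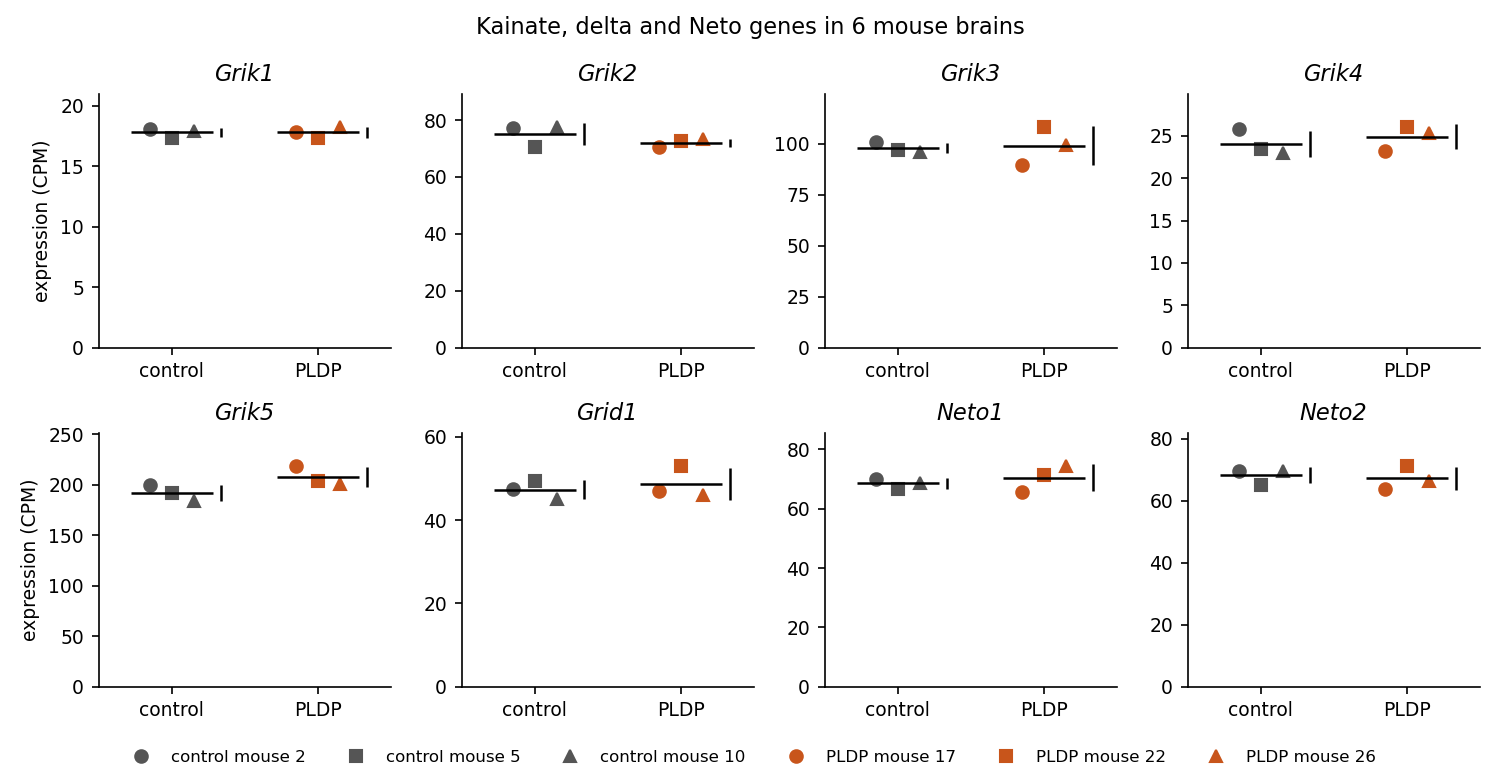
Expression of each member in CPM (vertical axis, from 0) in control and PLDP mice, 1 point per mouse, with the mean as a horizontal line and the SD of 3 mice as a vertical bar beside it. Only in Grik5 do the points of the diets not overlap, at 183.8 to 200.1 CPM against 200.7 to 218.9 CPM.

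Of the high-affinity subunits, Grik5 (ENSMUSG00000003378, chr7:25009849-25072346, GRCm38) had 200.1, 192.3 and 183.8 CPM in control mice 2, 5 and 10 and 218.9, 203.3 and 200.7 CPM in PLDP mice 17, 22 and 26. The PLDP mice all lay above the control mice, but the lowest PLDP mouse was less than 1 CPM above the highest control mouse. The log2 fold change was 0.11 ± 0.05 (SE), an increase of 8.12% with a 95% interval of 1.19 to 15.5% (adjusted p = 0.492, edgeR's quasi-likelihood test). The gene was not called without PLDP mouse 17 (log2 fold change 0.07), without control mouse 10 (0.08) or without control mouse 5 (0.11). Grik4 (ENSMUSG00000032017), the scarcer high-affinity subunit, had 25.8, 23.4 and 22.9 CPM in control mice and 23.3, 26.1 and 25.3 CPM in PLDP mice. These values overlapped, and its difference was 3.55% with an interval of -6.87 to 15.1% (adjusted p = 0.898 by edgeR), so a rise as large as that of Grik5 lay within the interval.

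The low-affinity, channel-forming subunits gave no call. Grik1 (ENSMUSG00000022935) was the steadiest member, at 18.1, 17.4 and 17.9 CPM in control mice and 17.8, 17.3 and 18.3 CPM in PLDP mice. Its coefficient of variation over the 6 mice was 2.17%, below the 5.15% that counting error alone gives at its depth, and its interval ran from -10.3 to 11.2% (adjusted p = 0.998 by edgeR). Grik2 (ENSMUSG00000056073) had 77.2, 70.6 and 77.7 CPM in control mice and 70.5, 72.5 and 73.3 CPM in PLDP mice. Control mouse 5 was level with the PLDP mice, the other control mice were above them, and the difference was -4.04% (interval -10.9 to 3.33%, adjusted p = 0.790). Grik3 (ENSMUSG00000001985) had 100.8, 97.1 and 96.0 CPM in control mice and 89.3, 108.3 and 99.2 CPM in PLDP mice. Here the PLDP mice held both the highest and the lowest value, and their SD of 9.50 CPM compared with 2.54 CPM in control mice. The fitted difference of Grik3 was 1.06% (interval -7.26 to 10.1%, adjusted p = 0.968).

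Grid1 (ENSMUSG00000041078), the delta subunit gene, had 47.5, 49.4 and 45.0 CPM in control mice and 47.0, 53.1 and 46.1 CPM in PLDP mice. The PLDP mouse 22 exceeded the others, the remaining values of both diets overlapped, and the difference was 3.16% (interval -5.81 to 13.0%, adjusted p = 0.893 by edgeR). The auxiliary subunits were equally close. Neto1 (ENSMUSG00000050321) had 70.1, 66.6 and 68.8 CPM in control mice and 65.7, 71.3 and 74.5 CPM in PLDP mice (2.83%, interval -4.91 to 11.2%, adjusted p = 0.889). Neto2 (ENSMUSG00000036902) had 69.7, 65.2 and 69.7 CPM in control mice and 63.9, 71.4 and 66.4 CPM in PLDP mice (-1.33%, interval -8.77 to 6.72%, adjusted p = 0.956). For both genes the control range lay within the range of the PLDP mice. The ratio of Neto1 to Neto2 per kb was 0.739, 0.750 and 0.724 in control mice and 0.754, 0.733 and 0.823 in PLDP mice (exact permutation p = 0.4, n = 3 each), with mouse 26 highest, and its log2 difference moved from 0.06 to 0.01 without that mouse.

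The members varied little, and no mouse was the highest or the lowest for all of them. The highest mouse exceeded the lowest by a factor of 1.06 for Grik1 and of at most 1.21, for Grik3. PLDP mouse 17 was the lowest of the 6 mice for 4 members, Grik2, Grik3, Neto1 and Neto2, and the highest for Grik5, whereas mouse 22 was the highest for Grik3, Grik4, Grid1 and Neto2. Leaving out mouse 17 moved the log2 fold change of Grik3 from 0.02 to 0.09 and that of Neto1 from 0.04 to 0.09, neither of which was called. Over the 7 uncalled members the intervals reached from -10.9% to 15.1%, which is the size of difference that 3 mice per diet left undecided here.

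**Figure D4:**
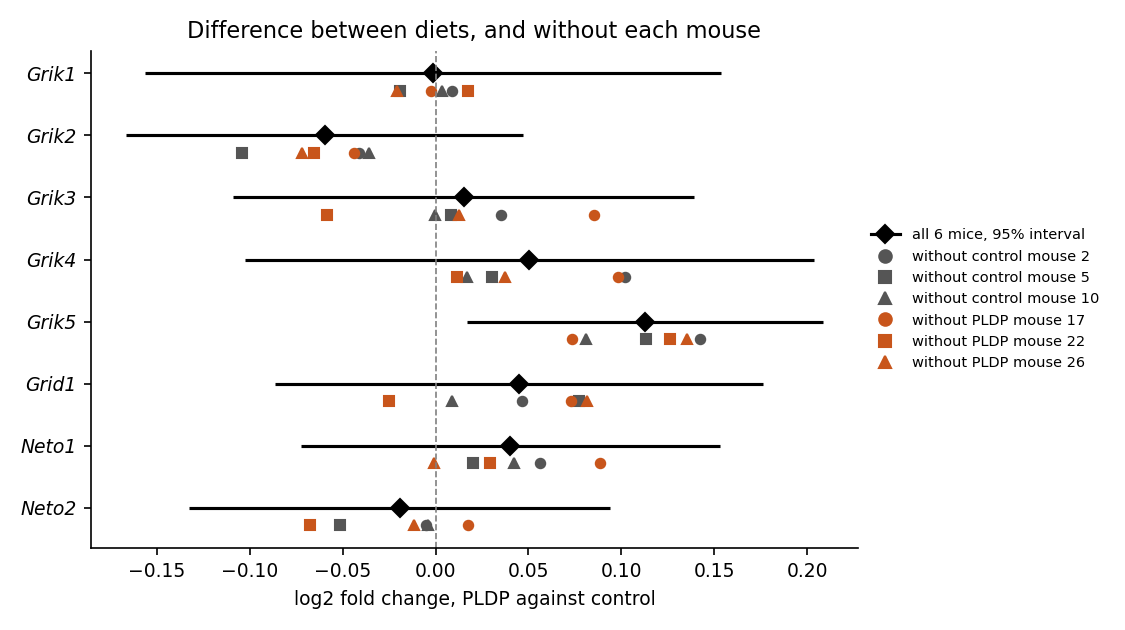
Log2 fold change of each member (horizontal axis, PLDP against control) with its 95% interval from all 6 mice (black), and the value when each mouse was left out (gray and orange points below). Grik5 alone has an interval above 0, and its value stays positive, between 0.07 and 0.14, in all 6 sets of 5 mice.

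The features whose pattern over the 6 mice was most like that of Grik5, by the root-mean-square difference of log2 CPM around each gene's mean, were Reep2 (0.014), Nubp1 (0.017), Ddt (0.018), Mrps7 (0.018) and Mapk12 (0.020), among 18576 features compared. Reep2, which shapes the endoplasmic reticulum, had 137.7, 136.3 and 130.0 CPM in control mice and 153.2, 142.6 and 140.2 CPM in PLDP mice. The nearest member was Grik1 at 0.082, in place 3104, and Grik4, the other high-affinity subunit, was at 0.096, in place 4893. The members were thus not among the genes most like Grik5.

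Genes that work with these receptors were followed in 4 lists with 39 tested genes. Of these, 4 were called higher and 1 lower in PLDP mice, none with an adjusted p under 0.05. Over all 18580 tested features, 4.91% were called higher and 3.69% lower. The median log2 fold change of the 39 genes was 0.01, against -0.0006 over all features. Among the 11 other ionotropic glutamate receptor subunits 1 was called, Grin2b, which encodes the GluN2B subunit of the NMDA receptor. It had 176.0, 191.7 and 195.2 CPM in control mice and 194.6, 219.3 and 226.1 CPM in PLDP mice. The diets overlapped by mouse 17 and control mouse 10, and the log2 fold change was 0.19 ± 0.05 (SE, adjusted p = 0.306, edgeR). It was called in all 6 sets of 5 mice, and its log2 fold change was 0.11 with the correction for GC content and length.

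Of the 8 extracellular partners, the neurexins Nrxn3 and Nrxn2, presynaptic adhesion molecules that bind the cerebellins, were called higher. Nrxn3 had 205.8, 212.9 and 204.4 CPM in control mice and 208.9, 230.6 and 239.0 CPM in PLDP mice (log2 fold change 0.12, adjusted p = 0.461 by edgeR). Nrxn2 had 431.2, 406.0 and 416.8 CPM against 424.4, 465.8 and 457.1 CPM (0.10, adjusted p = 0.493). In both genes PLDP mouse 17 lay within the control range. Nrxn3 was not called without PLDP mouse 22 (log2 fold change 0.11), PLDP mouse 26 (0.08), control mouse 10 (0.11) or control mouse 2 (0.12). Nrxn2 was not called without PLDP mouse 22 (0.07), PLDP mouse 26 (0.09), control mouse 10 (0.10) or control mouse 5 (0.08). The third neurexin gene and the cerebellin genes of the list were not called.

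Among 11 tested scaffold, turnover and RNA editing genes, Dlg4, which encodes the postsynaptic scaffold PSD-95, was called higher. It had 493.4, 489.6 and 478.5 CPM in control mice and 507.8, 539.1 and 546.9 CPM in PLDP mice. The diets did not overlap, the log2 fold change was 0.13 ± 0.04 (SE, adjusted p = 0.326, edgeR), and the gene was called in all 6 sets of 5 mice. Senp1, a protease that removes SUMO from proteins, was called lower, at 19.9, 18.5 and 20.1 CPM in control mice and 17.1, 17.9 and 16.6 CPM in PLDP mice (-0.18, adjusted p = 0.518, edgeR). The diets were apart for Senp1 too, but it was not called without PLDP mouse 26 (log2 fold change -0.16), control mouse 10 (-0.16) or control mouse 2 (-0.17), nor by DESeq2 (-0.18). None of the 9 genes of glutamate release and uptake was called. Slc1a2, the main astrocytic glutamate transporter and the most abundant of that list, had 1486, 1493 and 1407 CPM in control mice and 1430, 1592 and 1627 CPM in PLDP mice. These overlapped (log2 fold change 0.08, adjusted p = 0.617 by edgeR), but the gene was called without PLDP mouse 17 (0.14), with upper-quartile factors (0.09) and without a filter on low counts (0.08).

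**Figure D5:**
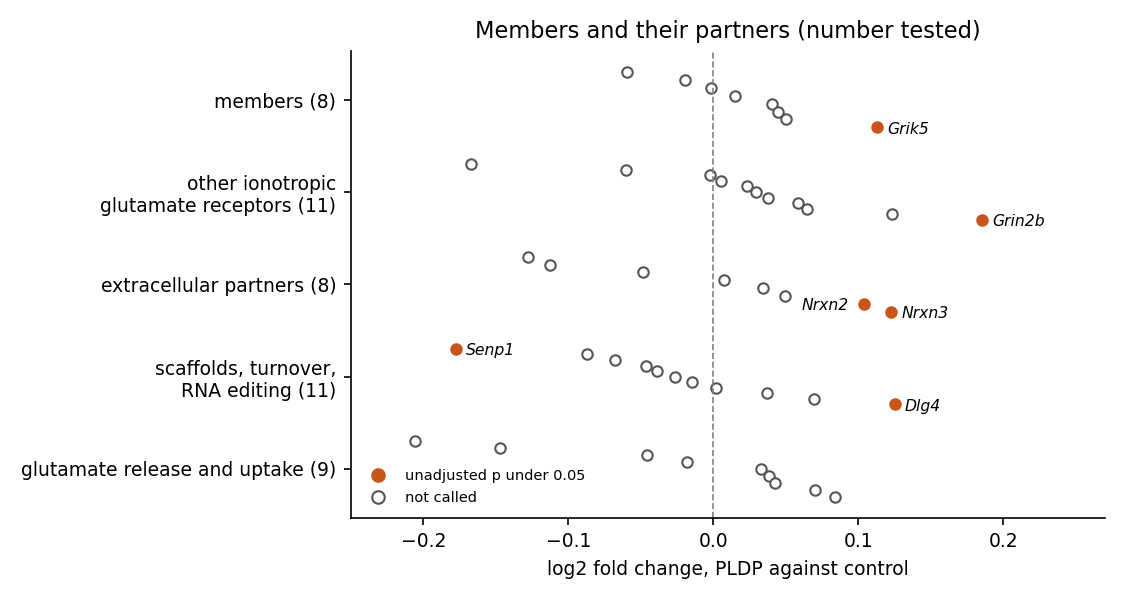
Log2 fold change (horizontal axis, PLDP against control) of the 8 members and of the 39 tested partner genes by list, 1 point per gene, filled orange where the unadjusted p was under 0.05. One member and 4 partners are filled to the right of 0, and Senp1 to the left.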

How the data were processed

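Whole-brain RNA of 6 mice was sequenced from stranded libraries of polyadenylated RNA as paired 150-base reads. The authors deposited raw counts per gene, 1 file per mouse, without normalization; the submitters' processing notes name cutadapt 2.9, HISAT2 2.2.0, featureCounts 2.6.0 and DESeq2 1.6.3 and the builds GRCm38 and GRCh38, without their roles. How strand and reads shared between genes were handled is not given in the sources used here. Of 55034 Ensembl identifiers, 54777 were found in GENCODE M21, and 5320 further features carry a number in place of an identifier. All stayed in the fit.

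Counts were filtered with filterByExpr (minimum count 10, minimum total 15), scaled by TMM and tested by diet with glmQLFit and glmQLFTest in edgeR 4.0.16 (R 4.3.3), with Benjamini-Hochberg adjustment over 18580 features. The threshold was an unadjusted p under 0.05; the study states a p under 0.05 without saying whether it was adjusted. CPM are TMM-scaled, and exon lengths are the union of annotated exons. Ratios were compared by two-sided exact permutation over mice (scipy 1.17.1). The steps were tested on simulated data. Alternatives were DESeq2 1.42.0, limma 3.58.1 voom, other scalings and filters, leaving out each mouse and, added after the data were seen, a correction for GC content and length and other lengths for the levels and ratios. Figures were drawn with matplotlib 3.10.9, and tables were read with pandas 2.3.3 in Python 3.11.15.

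The members and the partner and marker lists were chosen with earlier results of these data known. Named were all members, up to 3 called genes of each partner list (or the most abundant gene where none was called), up to 2 called genes of each marker list except 1 that is not reported here, and the 5 features closest to the member with the smallest p. Counts cover at least 342 reads per member and mouse, and intervals cover the spread between these mice only.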

Additional observations from a re-analysis of the deposited data

How the results depend on the processing

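Grik5 was called in 8 of 8 settings that kept all mice (log2 fold change 0.09 to 0.12 across edgeR, DESeq2 and limma), but the number of members called higher was 0 to 1 when single mice were left out. No member was called lower in any setting. Differences of the uncalled members near 0 changed sign. Grik1 was 0.00053 with the correction for GC content and length, 0.0042 with upper-quartile factors and -0.0208 to 0.0173 when single mice were left out. Grik3 was -0.0162 with that correction and -0.0585 to 0.0852 when single mice were left out. Leaving out single mice gave -0.0252 to 0.0813 for Grid1, -0.000637 to 0.0884 for Neto1 and -0.0675 to 0.0174 for Neto2. Grik2 (-0.104 to -0.0359) and Grik4 (0.0113 to 0.102) also moved when single mice were left out, but kept their sign and were not called. The cause of these changes was not tested. The number of partner genes called higher ran from 2 to 7 when single mice were left out, with 7 without PLDP mouse 17 and 2 without PLDP mouse 22 or control mouse 10. The number called lower was 0 by DESeq2, 3 with the correction for GC content and length, 3 without a filter on low counts and 0 to 2 when single mice were left out. The summed kainate level and both ratios kept their direction under every alternative run, but the log2 difference of the Neto1 to Neto2 ratio, 0.0608, was 0.0121 without PLDP mouse 26, and that of the high- to low-affinity ratio, 0.117, was 0.0411 without PLDP mouse 17. No paired analysis was possible because the diets share no mouse number. The spread over mice exceeded counting error for each member except Grik1, whose counts are the fewest.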

Other observations

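Other regional and cell type markers moved less than those of the brainstem and spinal cord. Among 77 further tested markers, 1 was called higher and 7 lower, where 4.91% of all tested features were called higher and 3.69% lower. The oligodendrocyte gene Mbp, which encodes a major myelin protein, had 3412, 3564 and 3323 CPM in control mice and 3439, 3016 and 3025 CPM in PLDP mice (log2 fold change -0.12, adjusted p = 0.449 by edgeR's quasi-likelihood test), and it was not called without PLDP mouse 22 (-0.09), PLDP mouse 26 (-0.09) or control mouse 5 (-0.09). Ttr, the transthyretin gene of the choroid plexus, had 679.3, 728.5 and 717.4 CPM against 535.4, 669.6 and 617.2 CPM (-0.22, adjusted p = 0.26), and -0.14, still called, without PLDP mouse 17. Folr1 of the same list gave -0.31 (adjusted p = 0.572). It was not called by DESeq2 or limma voom, nor without PLDP mouse 17 (-0.20), control mouse 2 (-0.23) or control mouse 5 (-0.27). Single calls were made for the astrocyte water channel Aqp4 (-0.11, adjusted p = 0.484), the microglial receptor P2ry12 (-0.17, adjusted p = 0.533), the hypothalamic peptide gene Pmch (-0.36, adjusted p = 0.549) and, upward, Eomes of the olfactory bulb (0.22, adjusted p = 0.559). Other genes of 3 of these lists went the other way. Of the tested genes, 2 were higher and 3 lower for astrocytes, and likewise for the hypothalamus. For the olfactory bulb 1 was higher and 2 were lower, and for microglia all 5 were lower. Each of the 4 single calls was lost in some sets of 5 mice. Such sets also hold fewer mice, and which of the 2 mattered was not tested. Aqp4 was not called without PLDP mouse 17 (-0.08), PLDP mouse 26 (-0.11) or control mouse 10 (-0.09). P2ry12 was not called by DESeq2, with the correction for GC content and length (-0.15), or without control mouse 5 (-0.09), PLDP mouse 17 (-0.15) or PLDP mouse 22 (-0.18). Pmch was not called by DESeq2, nor without PLDP mouse 17 (-0.11), control mouse 2 (-0.37) or control mouse 5 (-0.32). Eomes was not called by DESeq2, nor without PLDP mouse 22 (0.10) or control mouse 5 (0.13). No gene was called by edgeR in the lists for neurons, projection neurons, hippocampus, interneurons, cerebellar granule cells, Purkinje cells, striatum, thalamus, oligodendrocyte precursors and blood.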
